A study of Mus musculus with 9 samples.

Results

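Complex I, or NADH:ubiquinone oxidoreductase, is the largest enzyme of the mitochondrial respiratory chain. Its N module oxidises NADH, its Q module hands the electrons to ubiquinone, and its membrane-embedded P module pumps protons. The core of the P module is encoded by mitochondrial DNA, while all other subunits are encoded in the nucleus, and muscle depends on the complex for sustained work. The genes described here are the protein-coding genes whose symbol is Nduf followed by a, b, c, s or v and a number, which picked 37 of the 35275 genes in the count table. All 37 passed the filter on low counts, as did 13901 genes in all. Of the 37, 35 encode complex I subunits, 10 in the N module, 6 in the Q module, 9 in the proximal and 10 in the distal P module. Ndufa4, now known as a complex IV-associated protein, and its hypoxia-induced paralogue Ndufa4l2 carry the name but are not complex I subunits. Ndufab1, the mitochondrial acyl carrier protein and a true subunit, is missed by the pattern and was read beside the members. Ndufb1 was not analysed here.

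The RNA-seq libraries held poly-A RNA of the gastrocnemius, the main calf muscle, of female NSG mice, an immunodeficient strain, wild type by label and 12 weeks old. Every mouse had received extracellular vesicles (EVs) by tail vein, about 10 µg each time, 2 times a week over 5 weeks, and muscle was taken 2 days after the last dose. In 5 libraries the EVs came from MDA-MB-231 cells, a human line of breast cancer (MDA-MB-231 EV), and in 4 from MCF-10A cells, a human breast epithelial line that forms no tumours (MCF-10A EV). No mice without EVs are among these libraries, so which kind of EV a difference comes from cannot be told apart. The labels do not say whether a library is 1 mouse or a pool, so p-values measure the spread between libraries.

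Total counts ranged from 19463570 to 24158088 in MDA-MB-231 EV and from 13943465 to 25195826 in MCF-10A EV, where replicate 2 was the shallowest. The 6 muscle markers were Ckm, Acta1, Mylpf, Des, Myot and Ttn. They summed to 67426 to 77315 CPM in the MDA-MB-231 EV libraries and 77832 to 91813 CPM in MCF-10A EV. CPM here are a gene's counts relative to its library's total, on the usual scale and with edgeR's TMM factors. On this scale the sums did not overlap, but the size of the gap depends on the factors. The median log2 fold change of the 6 markers was -0.28, lower in MDA-MB-231 EV, and -0.14 with library sizes unscaled. Taken singly, only 1 of the 6 had no overlap between the groups. Whether the sums stay apart without the factors was not tested. Slow-fibre markers set MCF-10A EV replicate 1 apart, with a mean of 4.34 log2 CPM, against 6.30 to 8.40 log2 CPM in the MDA-MB-231 EV libraries and 7.67 to 8.05 log2 CPM in MCF-10A EV replicates 2 to 4. Pancreatic islet markers, which do not belong in muscle, summed to 1.61 to 145 CPM in the MDA-MB-231 EV libraries and 1.21 to 109 CPM in MCF-10A EV.

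Promoters are shown for the 3 core subunits of smallest p that have one on record, for Ndufc1 and Ndufa3, which were among the lowest in MCF-10A EV replicate 2, and for Ndufa11, the steadiest member. They are RefSeq windows on GRCm38.p6 (mm10), 250 bases before to 50 after an annotated start, written 5′ to 3′ on the gene's strand. Capitals mark exact matches, on either strand, to 4 short motifs of factors known to act on respiratory genes: GCGCATGC for NRF1, CCGGAAG for GABPA, AAGGTCA for oestrogen-related receptors and AAGATGG for YY1.
Ndufs8 (chr19:3912725-3913024, minus strand, capitals GABPA): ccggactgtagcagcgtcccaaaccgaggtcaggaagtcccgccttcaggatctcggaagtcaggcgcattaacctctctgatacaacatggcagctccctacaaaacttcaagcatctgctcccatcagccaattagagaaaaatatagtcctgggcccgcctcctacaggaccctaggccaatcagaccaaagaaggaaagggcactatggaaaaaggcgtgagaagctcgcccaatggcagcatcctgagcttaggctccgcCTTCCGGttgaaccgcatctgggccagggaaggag
Ndufs3 (chr2:90904672-90904971, minus strand, capitals GABPA): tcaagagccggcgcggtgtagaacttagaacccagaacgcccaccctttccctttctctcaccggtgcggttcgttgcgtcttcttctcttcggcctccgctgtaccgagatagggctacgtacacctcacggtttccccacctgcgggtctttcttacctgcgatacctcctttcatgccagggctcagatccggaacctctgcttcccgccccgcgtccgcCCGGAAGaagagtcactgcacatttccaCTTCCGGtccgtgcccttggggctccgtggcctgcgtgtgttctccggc
Ndufv2 (chr17:66101510-66101809, minus strand, no match): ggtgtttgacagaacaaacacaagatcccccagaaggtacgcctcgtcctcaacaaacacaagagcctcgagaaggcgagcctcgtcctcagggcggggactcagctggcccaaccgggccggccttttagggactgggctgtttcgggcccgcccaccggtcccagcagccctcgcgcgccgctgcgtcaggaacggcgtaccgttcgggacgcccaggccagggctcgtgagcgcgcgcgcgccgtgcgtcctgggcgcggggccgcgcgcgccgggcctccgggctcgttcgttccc
Ndufc1 (chr3:51408906-51409205, minus strand, capitals YY1): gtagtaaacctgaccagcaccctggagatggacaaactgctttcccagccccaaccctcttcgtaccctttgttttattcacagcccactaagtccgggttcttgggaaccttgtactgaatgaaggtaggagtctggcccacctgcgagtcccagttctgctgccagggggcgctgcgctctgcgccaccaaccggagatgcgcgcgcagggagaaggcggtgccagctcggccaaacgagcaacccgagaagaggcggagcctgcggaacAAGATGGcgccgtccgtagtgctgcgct
Ndufa3 (chr7:3617123-3617422, plus strand, capitals YY1): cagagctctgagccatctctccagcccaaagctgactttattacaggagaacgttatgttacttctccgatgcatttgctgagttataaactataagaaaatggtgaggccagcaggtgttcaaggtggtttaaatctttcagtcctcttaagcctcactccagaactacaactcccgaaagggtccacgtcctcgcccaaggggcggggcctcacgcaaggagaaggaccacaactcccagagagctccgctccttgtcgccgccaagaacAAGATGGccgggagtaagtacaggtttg
Ndufa11 (chr17:56717512-56717811, plus strand, capitals a pair of overlapping NRF1 matches): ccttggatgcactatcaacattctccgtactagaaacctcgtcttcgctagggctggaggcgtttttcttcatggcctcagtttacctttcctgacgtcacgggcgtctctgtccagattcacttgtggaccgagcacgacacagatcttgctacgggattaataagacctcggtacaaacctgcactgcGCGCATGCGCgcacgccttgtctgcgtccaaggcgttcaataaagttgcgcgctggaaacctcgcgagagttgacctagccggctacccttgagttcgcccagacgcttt

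Promoter windows were on record for 32 of the 37 members, in 34 windows since Ndufa5 and Ndufa7 have more than one, and those without one include Ndufs1, Ndufa2, Ndufb9 and Ndufa4l2. The YY1 letters were in 7 of the 34 member windows (20.6%), against 6.34% of all 32851 windows. In Ndufa3, Ndufa9, Ndufb8, Ndufc1, Ndufs4, Ndufs6 and Ndufs7 they lay 22 to 38 bases downstream of the start and on the gene's own strand. NRF1 letters were in 3 windows (8.82%, those of Ndufa11, Ndufa6 and Ndufa8) against 2.71% of all. GABPA letters were in 4 (11.8%, those of Ndufs3, Ndufs8, Ndufb6 and Ndufb7) against 8.86%, and those of oestrogen-related receptors in 3 (8.82%, those of Ndufb2, Ndufb4 and Ndufs5) against 4.72%. At least 1 of the 4 motifs was in 17 of the 34 windows, against 20.7% of all. These are matches of letters only, and binding was not measured.

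The comparison asks whether the transcripts of muscle depend on which line the injected EVs came from, the cancer line or the non-cancer line. For complex I no difference was called. With edgeR's quasi-likelihood test, 0 of the 37 members passed a Benjamini-Hochberg adjusted p of 0.05 over all genes tested, and neither did any other gene (0% of 13901). At an unadjusted p under 0.05 stood 1 of the 37 members, Ndufa4l2, and 0 of the 35 complex I subunits, while 12.8% of all genes tested did. DESeq2 called 3.05% of the genes to which it gave an adjusted p and none of the members, though it gave none for Ndufs5 and Ndufb2, and limma voom called 0% of genes and no member. No overlap between the groups' libraries was seen for 5.4% of all genes and for 0 of the members.

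The 35 subunits centred on no change. Their median log2 fold change was 0.037, against 0.020 over all genes tested, and 20 of 35 were above 0 (57.1%) against 53.1% of all genes. All-gene medians move with the scaling, to 0.15 with library sizes left unscaled, where the subunits' median was 0.17 and 33 of 35 were above 0. Fitted values ran from -0.16 for Ndufa12, an N module subunit added late in assembly, to 0.25 for Ndufa1, a small membrane subunit of the proximal P module. The 95% interval of the log2 fold change contained 0 for 35 of 35, a count that rests on the same statistic as their unadjusted p. It lay wholly within 0.5 of 0 for 27, and reached at most from -0.69 (Ndufs5) to 0.70 (Ndufa1). In bulk muscle, fewer cells of a type and less RNA per cell cannot be told apart.

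**Figure D1:**
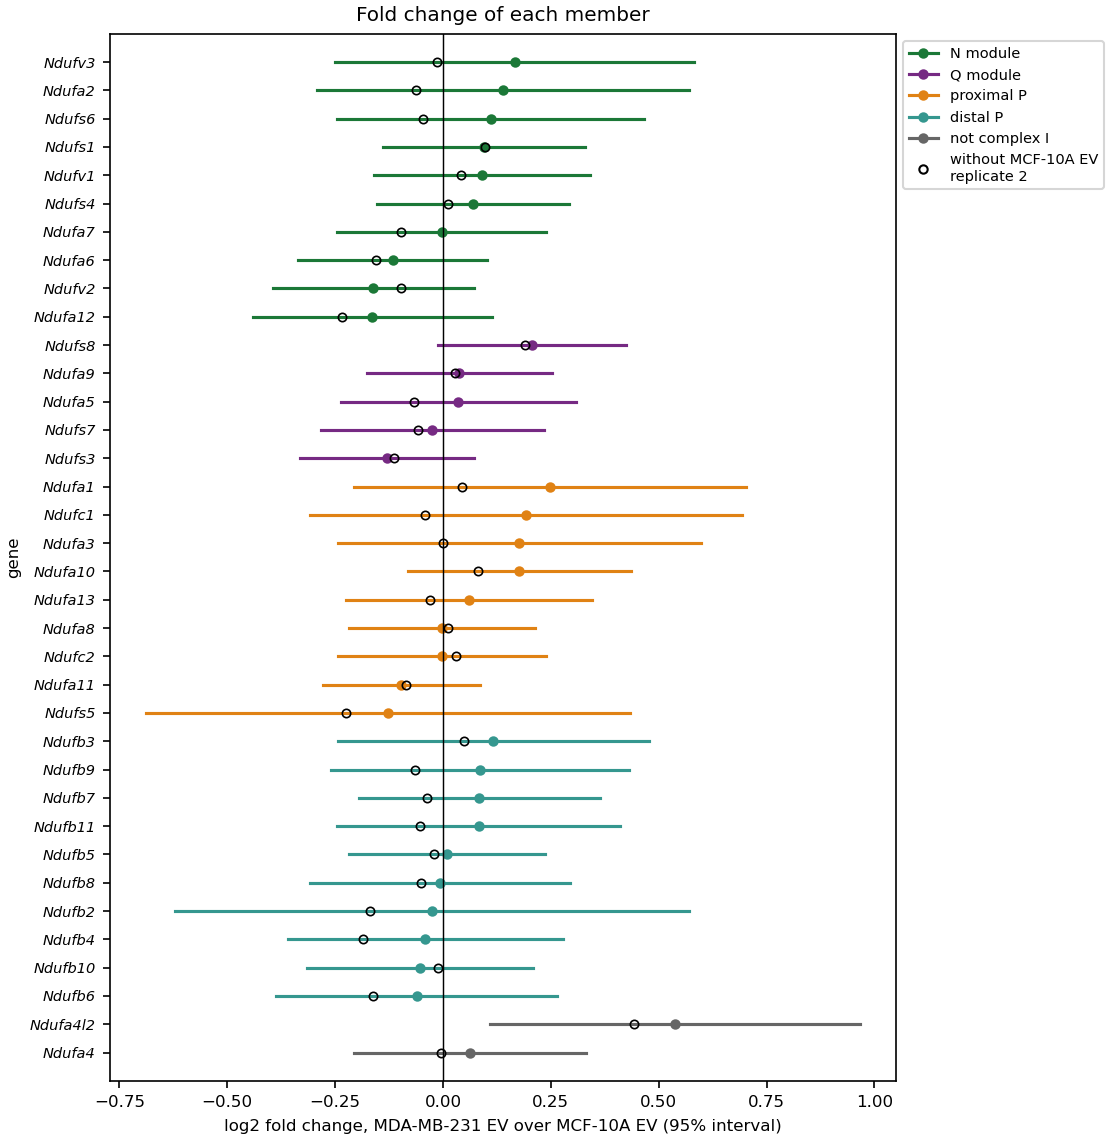
Log2 fold change of MDA-MB-231 EV relative to MCF-10A EV (x axis) for 36 members (y axis, by module). Filled points are edgeR's fit with 95% intervals and open circles the fit without MCF-10A EV replicate 2. The intervals of the 34 complex I subunits drawn cross 0, and 10 of these 34 are above 0 without that replicate.

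The N module takes electrons from NADH through a flavin and a chain of iron-sulphur clusters. Ndufv1 (chromosome 19, 4007497 to 4012806, minus strand, mm10) carries the flavin and the NADH site, and was at 447, 537, 423, 453 and 404 CPM in the MDA-MB-231 EV libraries 1 to 5 and at 413, 383, 420 and 485 CPM in the MCF-10A EV libraries 1 to 4. The ranges overlapped, with MDA-MB-231 EV replicate 2 highest and MCF-10A EV replicate 2 lowest, and the log2 fold change was 0.090 ± 0.11 (SE). Ndufs1 (chromosome 1, 63143596 to 63176833, minus strand), the largest subunit of the peripheral arm, was at 318, 376, 293, 300 and 296 CPM in the MDA-MB-231 EV libraries and 285, 299, 276 and 326 CPM in MCF-10A EV. Its highest library was the same one, at a log2 fold change of 0.095 ± 0.11.

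Ndufv2 (chromosome 17, 66078795 to 66101559, minus strand) holds an iron-sulphur cluster beside the flavin and differed from both. It was at 250, 276, 248, 233 and 236 CPM in the MDA-MB-231 EV libraries and 257, 315, 243 and 297 CPM in MCF-10A EV. Its highest library was MCF-10A EV replicate 2, where 19 of the 35 subunits were lowest. The means were 248 ± 17.0 CPM (SD, n = 5) in MDA-MB-231 EV and 278 ± 33.7 CPM (SD, n = 4) in MCF-10A EV, a log2 fold change of -0.16 ± 0.11 (edgeR adjusted p = 0.536). It was -0.097 when MCF-10A EV replicate 2 was left out and -0.024 with library sizes unscaled.

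Among the other N module genes, Ndufa12 had the lowest fold change of all members. It was at 196, 256, 198, 191 and 208 CPM in the MDA-MB-231 EV libraries and 233, 200, 222 and 285 CPM in MCF-10A EV. Each group had 1 high library, MDA-MB-231 EV replicate 2 and MCF-10A EV replicate 4, and the log2 fold change was -0.16 ± 0.13 (edgeR adjusted p = 0.604). It was -0.058 when MCF-10A EV replicate 4 was left out and -0.030 with library sizes unscaled. Ndufs4, the accessory subunit whose loss in mice is a model of Leigh syndrome, averaged 117 ± 8.82 CPM in the MDA-MB-231 EV libraries and 111 ± 12.3 CPM in MCF-10A EV (SD, n = 5 and 4). Module-wide, 6 of 10 genes were above 0 and the median log2 fold change was 0.080, which became -0.053 without MCF-10A EV replicate 2, 0.029 with MDA-MB-231 EV replicate 2 left out and 0.14 when replicate 4 of MCF-10A EV was left out.

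The Q module binds ubiquinone and holds the last iron-sulphur clusters of the chain. Ndufs8 (chromosome 19, 3908870 to 3912717, minus strand), which carries clusters of that chain, had the smallest p of the 35 subunits. It was at 137, 147, 145, 118 and 128 CPM in the MDA-MB-231 EV libraries and 107, 113, 119 and 129 CPM in MCF-10A EV. The 3 highest libraries were all MDA-MB-231 EV, but replicates 4 and 5 of that group lay within the range of the other. Means were 135 ± 11.9 CPM (SD, n = 5) in MDA-MB-231 EV and 117 ± 9.54 CPM (SD, n = 4) in MCF-10A EV. The log2 fold change was 0.21 ± 0.10 (95% interval -0.012 to 0.42, edgeR adjusted p = 0.413), and it lay between 0.16 and 0.26 whichever library was left out.

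Ndufs3 (chromosome 2, 90894634 to 90904827, minus strand), a core subunit of the peripheral arm, was at 266, 283, 269, 290 and 263 CPM in the MDA-MB-231 EV libraries and 306, 310, 268 and 315 CPM in MCF-10A EV. Here 3 of 4 MCF-10A EV libraries were above all 5 others, replicate 2 among them, and the log2 fold change was -0.13 ± 0.093 (edgeR adjusted p = 0.565), or 0.0077 with library sizes unscaled.

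Ndufs7 (chromosome 10, 80249121 to 80256794, plus strand) holds the cluster that passes electrons to ubiquinone. It was at 353, 425, 305, 361 and 344 CPM in the MDA-MB-231 EV libraries and 341, 339, 350 and 423 CPM in MCF-10A EV. Both groups had 1 library well above the others, and the log2 fold change was -0.024 ± 0.12, with either sign depending on the scaling or the library left out. Across the Q module 4 of 6 genes were above 0, with a median of 0.037. This median was -0.015 without MCF-10A EV replicate 2, -0.0020 with MDA-MB-231 EV replicate 2 left out and 0.11 when replicate 4 of MCF-10A EV was left out.

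**Figure D2:**
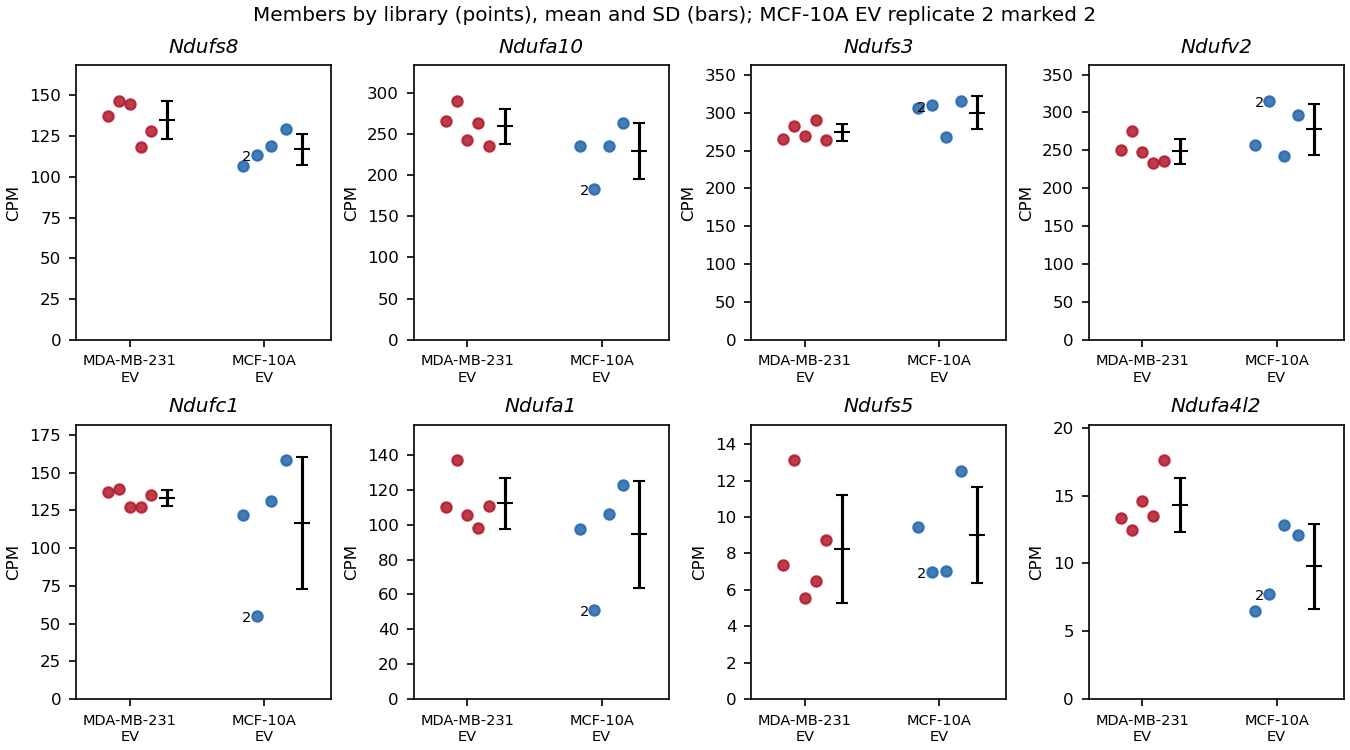
CPM (y axis, from 0) of 8 members in each MDA-MB-231 EV library (left, n = 5) and MCF-10A EV library (right, n = 4), with mean and SD as black bars and MCF-10A EV replicate 2 marked 2. Replicate 2 is the lowest library for Ndufa10, Ndufc1 and Ndufa1 and the highest for Ndufv2, and in all 8 panels the groups overlap.

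The proximal P module anchors the peripheral arm to the membrane. Ndufa10 (chromosome 1, 92439010 to 92473860, minus strand), a large accessory subunit on its matrix side, was at 265, 290, 243, 263 and 235 CPM in the MDA-MB-231 EV libraries and 236, 183, 236 and 263 CPM in MCF-10A EV. Replicate 2 of MCF-10A EV was lowest by a wide margin, and the log2 fold change of 0.18 ± 0.12 (edgeR adjusted p = 0.543) became 0.082 without it. Ndufc1, a small membrane subunit, was at 137, 139, 127, 128 and 135 CPM in the MDA-MB-231 EV libraries and 122, 55.0, 131 and 158 CPM in MCF-10A EV. Its spread in MDA-MB-231 EV was narrow, at 133 ± 5.42 CPM (SD, n = 5), and wide in MCF-10A EV, at 117 ± 43.8 CPM (SD, n = 4). The log2 fold change was 0.19 ± 0.23 with all libraries and -0.041 without MCF-10A EV replicate 2.

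Ndufa1 behaved likewise, at 110, 137, 106, 98.1 and 111 CPM in the MDA-MB-231 EV libraries and 97.4, 51.2, 106 and 123 CPM in MCF-10A EV. The same library was the lowest, and the log2 fold change of 0.25 ± 0.21 became 0.044 without it. Ndufa11, a membrane subunit of the same module, varied least of all members, at 131 ± 3.83 CPM in the MDA-MB-231 EV libraries and 140 ± 7.67 CPM in MCF-10A EV (SD, n = 5 and 4), with a log2 fold change of -0.097 ± 0.084, or 0.038 with library sizes unscaled. In this module 5 of 9 genes were above 0, with a median of 0.061, which became -0.00099 without MCF-10A EV replicate 2, -0.0019 with MDA-MB-231 EV replicate 2 left out and 0.17 when replicate 4 of MCF-10A EV was left out.

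The distal P module forms the far end of the membrane arm. Ndufb9, which binds the acyl carrier protein, was at 403, 460, 386, 375 and 368 CPM in the MDA-MB-231 EV libraries and 382, 253, 391 and 477 CPM in MCF-10A EV. MCF-10A EV held both its lowest library, replicate 2, and its highest, replicate 4, and the log2 fold change was 0.085 ± 0.16, or -0.065 without replicate 2. Ndufb10, a subunit on the intermembrane side, was at 364, 403, 351, 330 and 322 CPM in the MDA-MB-231 EV libraries and 323, 399, 320 and 427 CPM in MCF-10A EV. For this gene replicate 2 of MCF-10A EV was among the highest libraries, and the log2 fold change was -0.053 ± 0.12. The module had 5 of 10 genes above 0 and a median of 0.00027, which ran from -0.053 without MDA-MB-231 EV replicate 2 to 0.14 without MCF-10A EV replicate 4.

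Of the 3 genes outside this scheme, Ndufa4 was at 324, 383, 300, 309 and 310 CPM in the MDA-MB-231 EV libraries and 293, 268, 305 and 381 CPM in MCF-10A EV. Its 2 highest libraries came from different groups, and the log2 fold change was 0.062 ± 0.12. Ndufab1 was at 189, 212, 170, 160 and 181 CPM in the MDA-MB-231 EV libraries and 142, 177, 180 and 191 CPM in MCF-10A EV, with a log2 fold change of 0.078 ± 0.12.

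Ndufa4l2 (chromosome 10, 127514939 to 127517152, plus strand) stood farthest from 0. It was at 13.4, 12.5, 14.6, 13.5 and 17.6 CPM in the MDA-MB-231 EV libraries and 6.49, 7.78, 12.8 and 12.1 CPM in MCF-10A EV, on 100 to 378 counts per library. MCF-10A EV replicates 1 and 2 were below all other libraries, and replicate 3 lay inside the range of MDA-MB-231 EV. Means were 14.3 ± 2.0 CPM (SD, n = 5) in the MDA-MB-231 EV libraries and 9.80 ± 3.14 CPM (SD, n = 4) in MCF-10A EV, for a log2 fold change of 0.54 ± 0.20 that did not pass (edgeR adjusted p = 0.319, DESeq2 adjusted p = 0.139). Without both of the low libraries, MCF-10A EV replicates 1 and 2, it was 0.20. The gene overlaps Shmt2 on the opposite strand, and whether counting used strand is not given in the sources used here, so reads of the 2 genes cannot be told apart.

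Per length, the subunits spanned a wide range. FPKM, which is the count divided by gene length and library total, averaged over all 9 libraries, had a median of 158 over the 35 subunits, and 27 exceeded 100. The highest of the 37 members were Ndufa4 at 651, Ndufb9 at 599 and Ndufb10 at 432 FPKM, and the lowest were Ndufa4l2 at 13, Ndufs5 at 12.6 and Ndufb2 at 0.437 FPKM. Summed over the 35 subunits, FPKM came to 7099 ± 687 in MDA-MB-231 EV (SD, n = 5) and 6284 ± 1130 in MCF-10A EV (SD, n = 4). The sums overlapped, from 6602 to 8304 in MDA-MB-231 EV and from 5059 to 7738 in MCF-10A EV. As a share of all counts the subunits made up 0.747 ± 0.0724% in MDA-MB-231 EV and 0.659 ± 0.111% in MCF-10A EV. The lowest share, 0.541%, was in MCF-10A EV replicate 2. Neither measure carries scaling between libraries, and with library sizes unscaled the median log2 fold change of all genes tested was 0.15.

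The low level of Ndufs5, a subunit of the intermembrane side, goes with a near-identical copy. BC002163 (chromosome 16, 42955631 to 42955949, plus strand), a processed pseudogene, matches the coding sequence of Ndufs5 at 99.4% of positions over its whole length. The table gave BC002163 23444 counts over the 9 libraries and Ndufs5 1567, so the pseudogene held 93.7% of the pair. Ndufs5 itself was at 7.38, 13.1, 5.53, 6.46 and 8.76 CPM in the MDA-MB-231 EV libraries and 9.46, 7.0, 7.02 and 12.5 CPM in MCF-10A EV, and its coefficient of variation over the 9 libraries, 31.2%, was the largest of the members. BC002163 was at 130, 137, 121, 136 and 126 CPM in the MDA-MB-231 EV libraries and 123, 73.9, 132 and 155 CPM in MCF-10A EV. Its lowest library was MCF-10A EV replicate 2 and its highest MCF-10A EV replicate 4. With both rows summed the log2 fold change was 0.091 ± 0.17, against -0.13 ± 0.26 for Ndufs5 alone.

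Such copies were looked for over all members, as GENCODE vM21 transcripts matching at least 80% of a coding sequence at 90% identity or more. They were found for 12 of 37. Beside BC002163, Gm15920, a copy of Ndufa12, took 8120 counts, or 16.7% of that pair, and the members' other copies in the table took 0 to 73. Summed with it, Ndufa12 had a log2 fold change of -0.12 ± 0.12. Ndufb2, a small subunit of the distal arm, was at 1.49, 2.17, 1.81, 1.85 and 2.14 CPM in the MDA-MB-231 EV libraries and 1.54, 1.24, 1.85 and 2.99 CPM in MCF-10A EV, on 16 to 57 counts per library. It overlaps Adck2 on the same strand and Braf and Gm16272 on the other, and its deposited length of 4371 bases contrasts with a coding sequence of 315 bases. The part of these overlaps in its level was not tested. In all, 11 members overlapped another gene, and Ndufb7, Ndufa11, Ndufb8 and Ndufa3 were given lengths over 2 times their mRNA, which lowers their FPKM and leaves their fold changes as they are.

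The largest differences lay between libraries of the same group. Averaged over the 35 subunits, log2 CPM deviated from each gene's mean by 0.24 in MDA-MB-231 EV replicate 2, and by -0.053 to 0.019 in the other 4 libraries of that group. In MCF-10A EV the average deviation was -0.053, -0.33, -0.018 and 0.26 in replicates 1 to 4. MCF-10A EV replicate 4 was above the gene's own mean for 35 of 35 subunits and the highest library for 18. MDA-MB-231 EV replicate 2 was above it for 34 and the highest for 15.

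**Figure D3:**
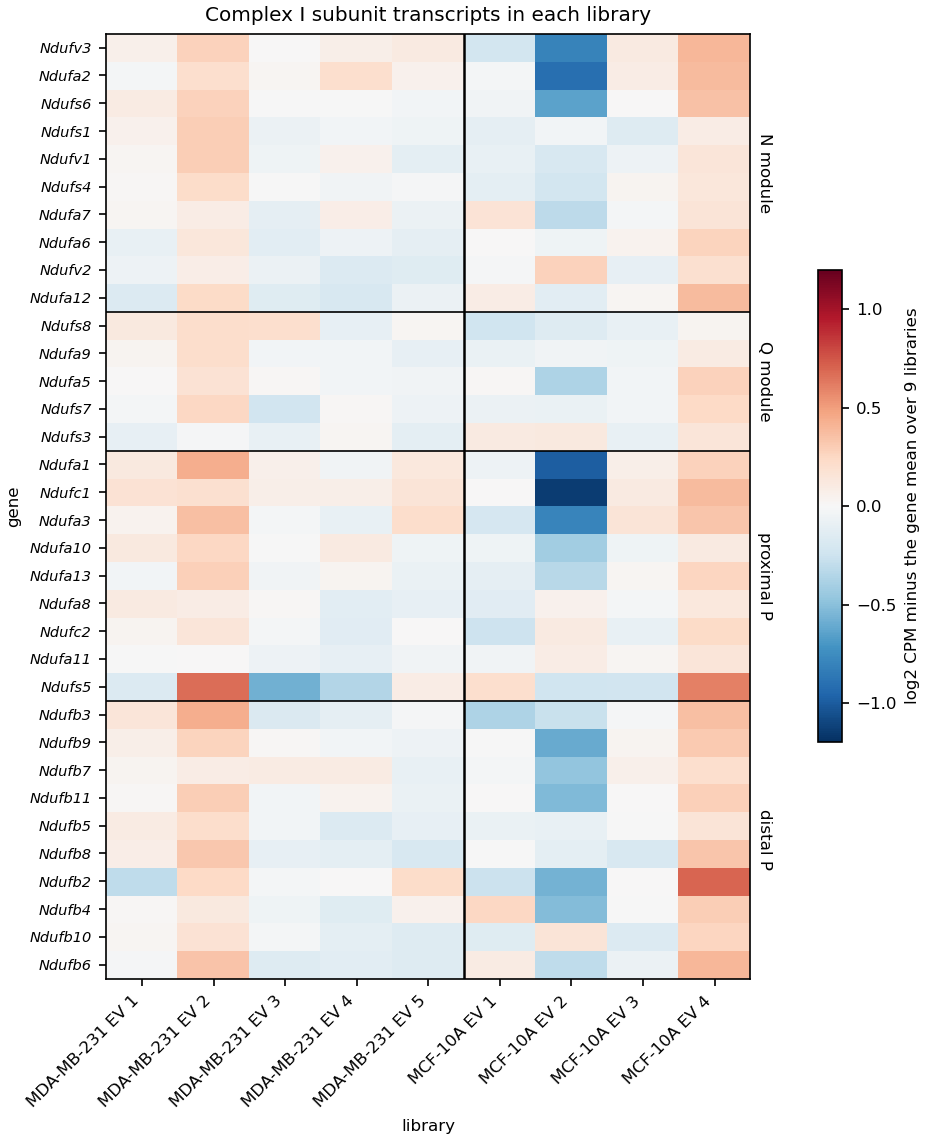
Log2 CPM of 34 complex I subunits minus each gene's mean over 9 libraries (colour), by library (x axis, MDA-MB-231 EV left of the line) and by gene and module (y axis). MDA-MB-231 EV replicate 2 is above the mean for 33 of these genes and MCF-10A EV replicate 4 for 34, while MCF-10A EV replicate 2 ranges from deep blue for Ndufc1 to red for Ndufv2.

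MCF-10A EV replicate 2 differed in kind as well as in size. It was the lowest library for 19 of 35 subunits, and the SD of its deviations across the subunits was 0.36 on the log2 scale, against 0.086 to 0.14 in the other 8 libraries. Relative to the mean of those 8, Ndufc1 stood at 0.409, Ndufa1 at 0.461, Ndufa2 at 0.493, Ndufv3 at 0.531 and Ndufa3 at 0.536. At the other end Ndufv2 stood at 1.24, Ndufb10 at 1.12, Ndufs3 at 1.10, Ndufc2 at 1.08 and Ndufa11 at 1.07. In all, 14 subunits were under 0.75 and 12 over 0.9, and both kinds occurred in each module. Core subunits deviated by -0.13 on average in that library and supernumerary ones by -0.37. Across the 35 subunits, which share the same libraries, the ratio ran with coding length at a Spearman correlation of 0.42, with mRNA length at 0.13, with gene length at 0.16 and with mean FPKM at 0.058, as descriptions.

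**Figure D4:**
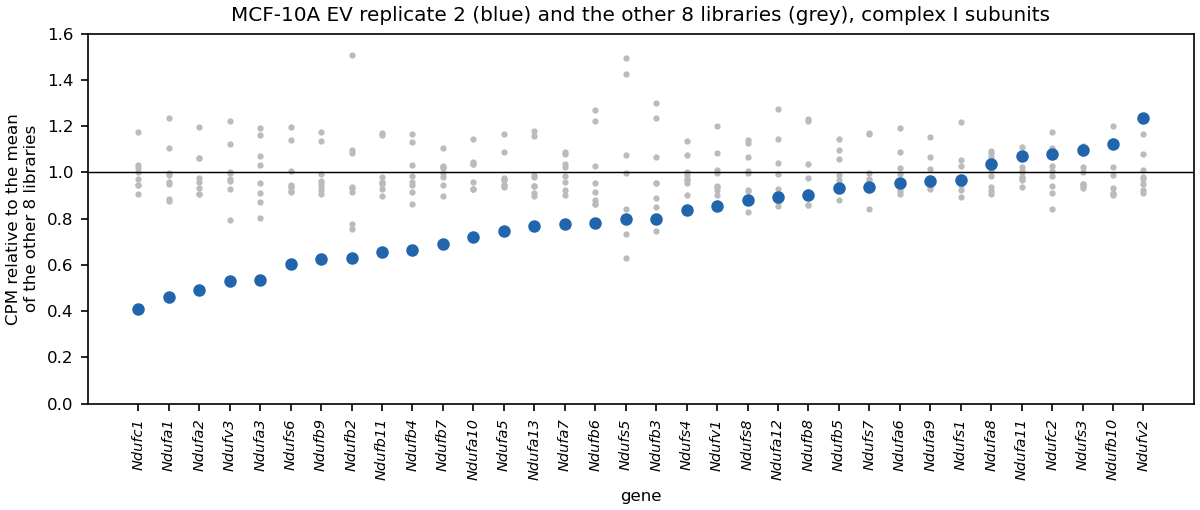
CPM of each of 34 complex I subunits (x axis) in MCF-10A EV replicate 2 (blue) and in each of the other 8 libraries (grey), relative to the mean of those 8 (y axis, from 0). The blue points run from 0.409 for Ndufc1 to 1.24 for Ndufv2.

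The sign of the median turned when either of 2 libraries was left out. Without MCF-10A EV replicate 2 the median log2 fold change of the 35 subunits was -0.041 with 11 above 0, and 13 subunits changed sign. Leaving out MDA-MB-231 EV replicate 2 gave a median of -0.0019 with 17 above 0. Without MCF-10A EV replicate 4 the sign was kept, at 0.14 with 30 above 0. No member was called in any of these fits.

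The other transcripts of the pathway gave no calls either. The 7 complex I subunits encoded by mitochondrial DNA had a median log2 fold change of -0.096, with 2 above 0 and 0 called by edgeR, and 0 of 7 had an unadjusted p under 0.05. That median was 0.040 without MCF-10A EV replicate 2. mt-Nd1, a membrane core subunit next to the Q module, averaged 11785 ± 1862 CPM in the MDA-MB-231 EV libraries and 11810 ± 1093 CPM in MCF-10A EV (SD, n = 5 and 4). mt-Nd5, the most distal proton-pumping subunit, was at 10094, 9175, 9241, 5841 and 7176 CPM in the MDA-MB-231 EV libraries and 8963, 15193, 8443 and 7020 CPM in MCF-10A EV. Its highest library was MCF-10A EV replicate 2, where many nuclear subunits were lowest. mt-Nd3 and mt-Nd4l were listed at only 3.50 to 6.56 and 3.92 to 9.39 CPM in the MDA-MB-231 EV libraries and at 4.15 to 8.09 and 5.12 to 17.3 CPM in MCF-10A EV, far under the other 5.

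Assembly factors build the complex from its modules and are not part of it. Of 19 listed, 15 were tested and 0 were called, with 5 above 0 and a median of -0.084. Ndufaf4, which acts on the Q module, was at 91.8, 73.1, 82.0, 54.8 and 69.7 CPM in the MDA-MB-231 EV libraries and 88.4, 159, 81.7 and 78.5 CPM in MCF-10A EV. One library, MCF-10A EV replicate 2, was well above all others, and the log2 fold change of -0.46 ± 0.22 (edgeR adjusted p = 0.400) became -0.16 without it. Ecsit and Timmdc1, which help to build the membrane arm, had log2 fold changes of -0.25 ± 0.12 and -0.28 ± 0.14 (edgeR adjusted p = 0.400 and 0.409), which became -0.14 and -0.11 when MCF-10A EV replicate 2 was left out.

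Among 12 regulators of respiratory genes, 10 were above 0 and 0 were called, with a median log2 fold change of 0.067. The 2 below 0 were Yy1 and Ppargc1a, the latter at -0.50, or 0.00090 without MCF-10A EV replicate 2. Yy1 had the smallest p, at 46.5 ± 3.58 CPM in the MDA-MB-231 EV libraries and 55.8 ± 8.15 CPM in MCF-10A EV (SD, n = 5 and 4), a log2 fold change of -0.26 ± 0.11 (edgeR adjusted p = 0.349). Ppargc1a, the coactivator PGC-1 alpha that drives mitochondrial biogenesis, was at 23.7, 19.3, 22.7, 20.4 and 20.8 CPM in the MDA-MB-231 EV libraries and 17.4, 57.8, 28.6 and 17.8 CPM in MCF-10A EV. MCF-10A EV replicate 2, the library with the lowest subunit transcripts, was the highest for Ppargc1a, and whether one bears on the other was not tested.

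Median log2 fold changes of the other respiratory complexes were 0.092 for 4 genes of complex II, 0.11 for 9 of complex III, 0.23 for 13 of complex IV and 0.079 for 15 of complex V, with 0 called in each. Above 0 were 4 of 4, 8 of 9, 12 of 13 and 10 of 15 genes. Complex IV had the only 2 of these genes at an unadjusted p under 0.05, Cox8a at 0.44 ± 0.14 and Cox6a1 at 0.46 ± 0.19 (edgeR adjusted p = 0.292 and 0.346). Leaving out MCF-10A EV replicate 2 put the median of complex IV at 0.032, that of complex III at 0.043 and that of complex V at -0.0034.

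**Figure D5:**
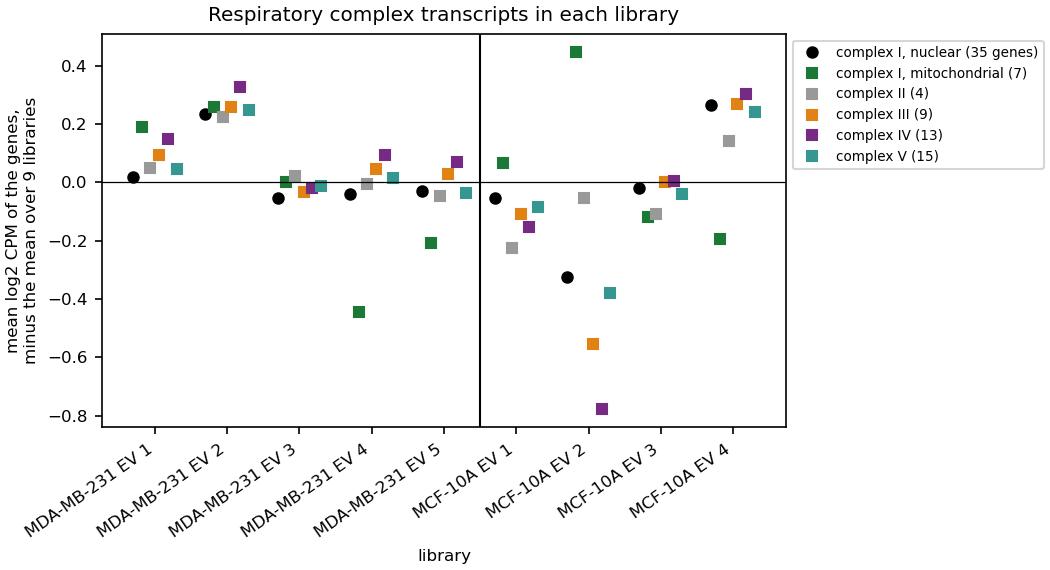
Mean log2 CPM of the genes of each respiratory complex minus its mean over 9 libraries (y axis) by library (x axis, MDA-MB-231 EV left of the line). In MCF-10A EV replicate 2 the means of the nuclear subunits of complexes I, III, IV and V lie below 0, and that of complex II slightly below. The mean of the mitochondrially encoded subunits of complex I lies above 0.

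Replicate 2 of MCF-10A EV was the lowest library in the mean level of complexes III, IV and V too. Mean log2 CPM of complex IV genes was 7.79 to 8.14 in MDA-MB-231 EV, and 7.03 in that library, where MCF-10A EV replicates 1, 3 and 4 had 7.66 to 8.12. For complex III the level was 8.26 to 8.55 in MDA-MB-231 EV, and 7.74 in MCF-10A EV replicate 2, where the others of its group had 8.18 to 8.56. Complex V was at 8.78 to 9.06 in MDA-MB-231 EV, at 8.44 in MCF-10A EV replicate 2 and at 8.73 to 9.06 in the rest of its group. Complex II, at 8.576 log2 CPM there, lay within the range of the other MCF-10A EV libraries, 8.41 to 8.77. It was just under the MDA-MB-231 EV libraries, at 8.584 to 8.854. Averaged over 7 genes, the mitochondrially encoded subunits of complex I were at 10.2 log2 CPM there, above all other libraries. Among them mt-Nd3, mt-Nd4l, mt-Nd5 and mt-Nd6 were each highest in that library. The rest were not: mt-Nd4 was at 6820 CPM (6051 to 8842 CPM in the other libraries) and mt-Nd2 at 7182 CPM (6611 to 10558 CPM). For mt-Nd1 the level was 12312 CPM (9329 to 13573 CPM).

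Markers of other cells and fibres gave 0 edgeR calls. DESeq2 called 4 of 12 fast-fibre genes lower, and 1 of 7 endothelial, 1 of 7 fibroblast and 3 of 6 tendon genes higher. Over all genes with an adjusted p it called 229 of 7503 (3.05%). Fast-fibre genes were below 0 in 12 of 12 cases, with a median log2 fold change of -0.30, or -0.37 without MCF-10A EV replicate 2. Their sums were 117221 to 144188 CPM in the MDA-MB-231 EV libraries and 157080 to 218334 CPM in MCF-10A EV. Of these genes, Tnnc2 was near the floor, at 0 to 0.99 CPM. Myh1 was at -0.23, or 0.28 without MCF-10A EV replicate 2, and Mylpf is also among the muscle markers. Slow-fibre genes, which mark fibres rich in mitochondria, were above 0 in 10 of 10 cases with a median of 0.39, or 0.011 without MCF-10A EV replicate 1. Endothelial markers summed to 372 to 511 CPM in the MDA-MB-231 EV libraries and 305 to 371 CPM in MCF-10A EV, with 6 of 7 above 0. Tendon markers summed to 1309 to 1655 CPM in the MDA-MB-231 EV libraries and 491 to 1155 CPM in MCF-10A EV, with 5 of 6 above 0. Mast-cell markers summed to 30.5 to 88.0 CPM in the MDA-MB-231 EV libraries and 12.7 to 35.4 CPM in MCF-10A EV, with 5 of 5 tested above 0 and a median log2 fold change of 1.11. The part of fibre type and of other cells in the values of complex I was not tested.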

How the data were processed

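Poly-A RNA of about 20 mg of gastrocnemius per library was sequenced at Novogene, per the labels' protocols. The authors deposited whole-number counts per gene and FPKM on mm10. Each FPKM equals count over gene length and library total within 0.1% for 100% of 161066 values, so it carries no scaling between libraries. Per the submitters' processing notes, the tools included STAR 2.5, TopHat, edgeR, HTSeq 0.6.1 and DESeq2, with no roles given. The annotation release and strand setting are not given in the sources used here.

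Counts were tested with edgeR 4.0.16 (quasi-likelihood, robust, TMM, filterByExpr with minimum count 10 and total 15, two-sided) in R 4.3.3, over all 9 libraries with group as the term. An adjusted p under 0.05 counted as a call, and the test was checked on simulated data. Log2 fold changes are given ± SE and put MDA-MB-231 EV on top, and 95% intervals use the t distribution of the fit. The SE is the absolute log2 fold change over the square root of the test's F statistic, so interval and p share 1 statistic. Mean log2 CPM used a prior count of 2. Alternatives were RLE, upper-quartile and no scaling, leaving out the 20 most abundant genes, no filter, CPM 1 in 4 libraries, limma 3.58.1 voom, DESeq2 1.42.0, edgeR with non-robust dispersion, limma-trend on FPKM with a pseudocount of 1 or 0.1 before log2, a replicate block, calls only at an absolute log2 fold change of 1 or more, and each library left out. A pair of alternatives was chosen after seeing the data: omitting MCF-10A EV replicates 1 and 2 together, and summing Ndufs5 or Ndufa12 with its copy.

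The members and gene lists were chosen with earlier results of these data known. Values per library are given by a rule that takes the 7 core subunits, the 6 members with the smallest p, the 3 highest and 3 lowest by FPKM, Ndufa4, Ndufa4l2 and Ndufab1, and up to 3 genes of each related list, and 1 item it takes is not reported here, though counts and medians include it. Other genes given with values were chosen after their values were seen, among them Ndufa12, Ndufa1, Ndufc1, Ndufa11, Ndufs4, mt-Nd1 and BC002163. Replicate libraries of a group differed by more than sampling noise (chi-square over degrees of freedom at least 14.2), so none was merged. Near copies were found with BLAST+ 2.17.0, and figures drawn with matplotlib 3.10.9.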

Additional observations from a re-analysis of the deposited data

Results flagged for a closer look

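MDA-MB-231 EV replicate 2 lay far above the other 4 libraries of its group for 6 members. It was at 256 CPM for Ndufa12 (the others 191 to 208 CPM), 133 CPM for Ndufs4 (111 to 115 CPM) and 169 CPM for Ndufa6 (141 to 147 CPM). For Ndufa5 it was at 296 CPM (255 to 266 CPM), for Ndufa13, also known as GRIM-19, at 344 CPM (266 to 288 CPM) and for Ndufb6 at 105 CPM (74.4 to 82.1 CPM). MCF-10A EV replicate 4 lay far above the other 3 libraries of its group for Ndufs7, at 423 CPM (339 to 350 CPM). These were 7 of 76 gene and group combinations checked with Dixon's criterion, which chance meets about 1 time in 20 for a single combination. The combinations share the same 9 libraries and are not independent, so the 7 cannot be set against that rate.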

How the results depend on the processing

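No complex I member was called under any alternative run. All genes called numbered 0 to 2 when 1 library was left out, 2 without MCF-10A EV replicate 4, and 229 with DESeq2. The median log2 fold change of the 35 subunits ran from -0.041 to 0.14 with 1 library left out. It was -0.11 without both MCF-10A EV replicates 1 and 2, where the N module was at -0.12, and at most 0.19 on log2(FPKM + 0.1). Subunits above 0 numbered 11 to 30 with 1 library left out, 3 without both replicates, 33 unscaled and 32 on either FPKM scale. No sign was seen that replicate numbers pair the samples. Deviations of same-numbered libraries correlated at -0.30, -0.18, 0.038 and 0.080, and 0 of 4 numbers correlated best with their own. Low correlations cannot exclude a shared batch. With the replicate block 0 members were called and the median was 0.068.

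Of 376 alternative values for 17 named genes, 31 had the opposite sign, none a call. Unscaled these were 0.0077 for Ndufs3, 0.11 for Ndufs7, 0.082 for Ndufb10, 0.0097 for Ndufs5 and 0.10 for Ndufb2. On log2(FPKM + 1) they were 0.0082 for Ndufs3, 0.11 for Ndufs7, 0.090 for Ndufb10 and 0.041 for Ndufb2, and on log2(FPKM + 0.1) 0.0083, 0.11, 0.090 and 0.14. Upper-quartile factors gave 0.00032 for Ndufs7. With 1 library left out, values crossed 0 for Ndufa4 (-0.0044 to 0.17), Ndufb9 (-0.065 to 0.22) and Ndufc1 (-0.041 to 0.37), lowest without MCF-10A EV replicate 2 and highest without replicate 4. They also did for Ndufb2 (-0.17 to 0.27, at the same extremes, and 0.051 without MDA-MB-231 EV replicate 1) and for Ndufab1 (-0.0051 without MCF-10A EV replicate 1, up to 0.13). Without MCF-10A EV replicate 4 they were highest for Ndufs7 (-0.086 to 0.056, and 0.030 without MDA-MB-231 EV replicate 3), Ndufb10 (-0.11 to 0.027) and Ndufs5 (-0.35 to 0.075). Without both MCF-10A EV replicates 1 and 2 they were -0.0020 for Ndufv1, -0.078 for Ndufa4, -0.12 for Ndufb9, -0.028 for Ndufab1, -0.031 for Ndufa1 and -0.12 for Ndufc1. Ndufs5 with its copy was at 0.091. The causes were not tested. Ndufb2 had the fewest counts of the members, 16 to 57 per library.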
